A study of Mus musculus with 18 samples.

Results

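The cytosolic ribosomal proteins are the protein part of the ribosomes that translate nuclear-encoded mRNAs. They were taken here as the symbols that begin with Rpl or Rps and a digit, with Rplp0, Rplp1, Rplp2 and Rpsa added, the S6 kinases (Rps6k) and the symbols marked as pseudogenes left out. The rule found 87 of 24062 rows. By role they are 31 proteins of the small subunit, 43 of the large subunit and the 3 proteins of the large subunit's stalk, together 77 canonical ribosomal proteins. A further 9 are paralogs of another member, and Rps19bp1, which binds a ribosomal protein and is not one itself, also matches the rule. All 87 symbols matched a gene of GENCODE release M21.

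Ribosomal proteins are made in near-equal numbers, joined to ribosomal RNA in the nucleolus and exported as subunits. Their mRNAs carry a 5′ terminal oligopyrimidine (TOP) start, a cytosine followed by an unbroken run of cytosines and thymines, through which mTOR signalling and Larp1 set their translation. The proximal tubule, the most abundant epithelium of the kidney cortex, takes up the plant toxin aristolochic acid I (AAI), which damages its DNA. Free Rpl5, Rpl11 and Rpl23 bind Mdm2, the brake on p53, when ribosome assembly is disturbed.

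Total RNA of kidney cortex from C57Bl/6 mice was sequenced in 18 libraries, 3 in each of 6 groups. The genotypes were Klf6PTKO, the label of a Klf6 knockout in the proximal tubule (PTKO), and Klf6fl/fl with floxed alleles (fl/fl). Both were given the DMSO vehicle, AAI with kidneys taken after 3 weeks, or the same AAI course and a further 3 weeks of remodeling, called 6 weeks in the sample titles. The labels name neither the Cre driver nor the week of the DMSO kidneys. They do not say that each library is its own mouse, so p-values measure the spread between libraries, which may be technical.

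Levels are as deposited, in CPM, the reads of a gene scaled to a common total per library. Whole reads could be recovered, and the libraries held 11722625 to 27213219 reads. Klf6 itself ranged from 40.2 to 56.7 CPM in PTKO and from 39.2 to 42.3 CPM in fl/fl under DMSO, from 229 to 310 and from 256 to 308 CPM at 3 weeks, and from 228 to 370 and from 201 to 284 CPM at 6 weeks. Whole cortex holds the Klf6 transcripts of all its cells, so these values do not check the genotype label. Proximal tubule markers (10 genes) were present in every library, and erythroid markers were at or near 0, with Hba-a1, Hbb-bs and Hbb-bt listed at 0 throughout. PTKO DMSO replicate 2 and PTKO 6-week replicate 2 stood apart from their groups by adipocyte markers, and fl/fl 6-week replicate 2, the shallowest library, by the first principal component. Where a member's call printed in the text ended without these 3 libraries, the value is given beside it.

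Start sites are shown for 10 members because the TOP start is the sequence the family is known by. Each line gives 15 bases before and 15 bases from the annotated start, 5′ to 3′ on the gene's strand, from RefSeq on GRCm38.p6. Capitals mark the longest run of C and T that begins with C within 5 bases of the start and holds at least 5 bases.
Rps15a (chr7:118116133-118116162, minus strand): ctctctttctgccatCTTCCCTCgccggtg
Rps9 (chr7:3704026-3704055, plus strand): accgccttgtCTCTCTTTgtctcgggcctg
Rplp2 (chr7:141447636-141447665, plus strand): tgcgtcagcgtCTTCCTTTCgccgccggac
Rps24 (chr14:24490663-24490692, plus strand): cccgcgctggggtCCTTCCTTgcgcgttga
Rps6 (chr4:86857353-86857382, minus strand): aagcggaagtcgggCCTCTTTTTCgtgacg
Rps2 (chr17:24720048-24720077, plus strand): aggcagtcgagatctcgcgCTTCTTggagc
Rplp0 (chr5:115559452-115559481, plus strand): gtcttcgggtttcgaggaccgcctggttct
Rpl23 (chr11:97782425-97782454, minus strand): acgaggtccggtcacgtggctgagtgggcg
Rpl3l (chr17:24727811-24727840, plus strand): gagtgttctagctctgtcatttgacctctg
Rps27l (chr9:66946071-66946100, plus strand): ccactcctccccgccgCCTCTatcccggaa

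Rps15a, Rps9, Rplp2, Rps24 and Rps6 hold runs of 8 to 10 bases. Rplp0 and Rpl23 have no such run at the RefSeq start, which may differ from the start used in kidney. Promoter entries matched 66 of the 87 members. A run of at least 7 bases from within 5 bases of the start was found in 22 of 57 canonical members (38.6%) and in 1 of 8 paralogs, against 7.64% of all 27025 symbols in the table. A run of at least 5 bases at the start base itself was found in 13 of the 57 canonical members (22.8%), against 3.01% of all symbols. A run is a description of the annotated start, not of the mRNA made here.

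The measured level of the family was low and uneven. The members together took 0.343 ± 0.016% of reads in the PTKO DMSO libraries and 0.345 ± 0.009% in the fl/fl DMSO libraries (SD, n = 3 each). The 10 members with the highest mean, led by Rpl4 and Rps3, held 64.1% of the members' summed mean. Rpl4, a large subunit protein (ENSMUSG00000032399.8, chromosome 9, 64173375 to 64178666, on GRCm38 like all gene positions given), averaged 642 CPM over all libraries and 418 CPM per kb of transcript. Rps3, a small subunit protein at the mRNA entry site (ENSMUSG00000030744.13, chromosome 7, 99477896 to 99483738), reached 458 CPM per kb, and the stalk protein Rplp1 776 CPM per kb. In contrast Rpl5, a large subunit protein that carries 5S RNA into the ribosome, averaged 0.347 CPM and stood at 0.11 to 0.675 CPM across the libraries. Rpl26 and the paralogs Rpl10l and Rps27rt were listed at 0 in every library, where a count of 0 allows a level of up to 0.11 to 0.256 CPM (3 reads of a library, counting error only).

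The levels varied with how much of a transcript is shared with other genes. Ribosomal protein genes have many processed pseudogenes. The share of 100-base windows of a member's GENCODE transcripts that occur in no other gene's transcript was compared with its level per kb. Across the 77 canonical members, whose values come from the same libraries, Spearman's rho was 0.53 and Pearson's r on the log2 level was 0.52. With windows of 31 bases Spearman's rho was 0.33. The 20 members with at most 50% of windows unique had a median of 2.58 CPM per kb, the 40 with 50 to 90% had 19.2 CPM per kb, and the 17 with over 90% had 221 CPM per kb. Rps3, with 100% of windows unique, and Rpl5, with 17.3%, are an example of each. Rpl26 was listed at 0 with 80.9% of windows unique. The part of shared sequence in the levels was not tested, and levels are therefore compared between libraries for 1 gene rather than between genes.

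**Figure D1:**
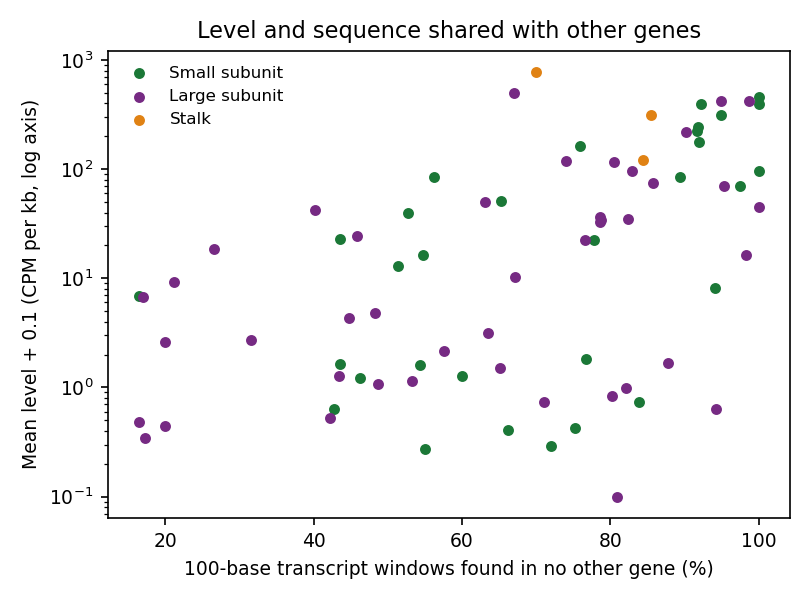
Mean level over 18 libraries (CPM per kb of transcript plus 0.1, log axis) against the share of 100-base transcript windows found in no other gene, for 77 canonical ribosomal proteins; each point is 1 gene, coloured by role. The 17 genes with over 90% of windows unique have a median of 221 CPM per kb, against 2.58 CPM per kb for the 20 genes with at most 50%.

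Of the 87 members, 68 had at least 1 CPM in at least 3 libraries and were tested. The 19 others included Rpl5, Rpl9, Rpl24, Rpl26, Rpl30, Rpl38, Rps23, Rps27 and Rps29 among the canonical proteins, and the paralogs Rpl10l, Rpl39l and Rps27rt. None of these 19 passed 1.28 CPM in any library. Among the 68, Rps12, Rps27a, Rpl19, Rpl27, Rpl12 and Rpl11 were under 1 CPM in every DMSO library and passed only through AAI libraries, so they had to be higher with AAI and their calls carry no weight. The test was limma on log2(CPM + 1), and log2 differences in the text are on that scale, with Benjamini-Hochberg adjustment over the 14604 genes tested and a call at an adjusted p under 0.05.

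Ribosomal protein levels in CPM were higher after AAI in both genotypes. With quantile normalization, however, the members' median at 6 weeks lay below 0, at -0.026 in fl/fl and -0.075 in PTKO. The median of all genes was then -0.091 in fl/fl and -0.065 in PTKO. At 3 weeks the members summed to 0.532 ± 0.051% of reads in PTKO libraries and to 0.721 ± 0.096% in fl/fl libraries (SD, n = 3 each). At 6 weeks the sums were 0.507 ± 0.005% in PTKO and 0.566 ± 0.046% in fl/fl. Every AAI library lay above every DMSO library. The highest of all was fl/fl 3-week replicate 3 at 8304 CPM, against 6476 CPM in the lowest library of its group. Of the 62 tested members that reached 1 CPM in at least 1 DMSO library, the log2 change of 42 (67.7%) passed the test upward in all 4 comparisons of AAI with DMSO, against 42.9% of the 13388 genes that met the same condition.

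**Figure D2:**
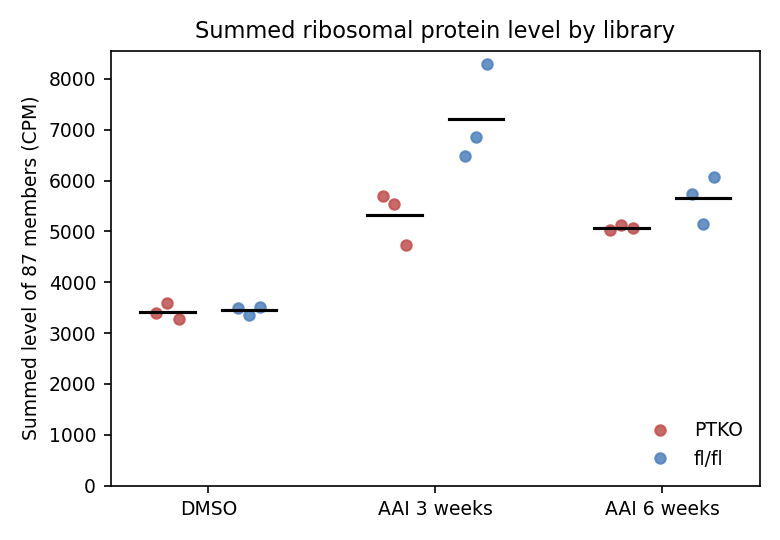
Summed level of the 87 members (CPM, linear axis from 0) in each library by treatment, with PTKO in red left of fl/fl in blue; points are libraries and bars are means of 3. All AAI libraries lie above all DMSO libraries, and at 3 weeks the PTKO mean of 5324 CPM is below the fl/fl mean of 7214 CPM.

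In fl/fl kidneys at 3 weeks, 62 of the 68 tested members were called higher than under DMSO and 1 lower, where 58% of all genes tested were called higher and 18.2% lower. The median log2 change of the members was 0.92, against 0.45 over all genes, which is 0.47 above that shift. By role the median was 1.09 over 24 small subunit proteins (23 called higher), 0.90 over 34 large subunit proteins (32 called higher), 1.39 over the 3 stalk proteins (all called higher) and 0.25 over 6 paralogs (3 called higher, 1 lower). At 6 weeks 51 fl/fl members were called higher and 1 lower (all genes 59.8% and 13.9%), with a median of 0.53, against 0.45 over all genes. In PTKO kidneys 52 were called higher and 1 lower at 3 weeks (all genes 57.2% and 13.9%; median 0.59, against 0.42) and 47 higher and 3 lower at 6 weeks (53.7% and 11.4%; median 0.46, against 0.36). The 3 called lower in PTKO at 6 weeks were Rpl3l, Rps2 and Rps25. Among the 52 members with a mean of at least 5 CPM, which hold none of the 6 genes named above, 49 were called higher in fl/fl at 3 weeks, where 57.2% of all genes at that level were. At 6 weeks 75% of the members were called higher in fl/fl and 69.1% in PTKO, against 59.8% and 53.7% of all genes. The counts, shares and medians over the 68, by role and under the scalings below include the 6 genes that passed only through AAI libraries. Both AAI groups of a genotype were compared with the same DMSO libraries.

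AAI moved the median of all genes by 0.36 to 0.45 in CPM, and the counts changed with the scaling of the libraries. With median-of-ratios scaling, which sets that median near 0, the members called higher and lower were 50 and 3 for fl/fl at 3 weeks, where all genes were called higher in 36.7% and lower in 34.2%. They were 18 and 6 for fl/fl at 6 weeks (all genes 34.1% and 32.5%), 19 and 4 for PTKO at 3 weeks (32.9% and 31.3%) and 15 and 5 for PTKO at 6 weeks (28.7% and 28.9%). The members called higher were thus 26.5%, 27.9% and 22.1% of the 68 in these 3 comparisons, below the shares of all genes. Members called lower were 4.41% to 8.82% in the 4 comparisons, also below. The members' medians with this scaling lay above those of all genes. In fl/fl they were 0.53 at 3 weeks and 0.11 at 6 weeks, against 0.030 and 0.019 over all genes. In PTKO they were 0.20 and 0.13, against 0.011 and 0.011. With quantile normalization fl/fl at 3 weeks gave 36 higher and 7 lower (all genes 31.6% and 38.9%). In the other 3 comparisons it gave 20 and 21 for fl/fl at 6 weeks (28% and 36.4%), 20 and 17 for PTKO at 3 weeks (27% and 35.9%) and 16 and 17 for PTKO at 6 weeks (22.7% and 29.1%). Those members called higher were 29.4%, 29.4% and 23.5% of the 68, close to the shares of all genes. Median-of-ratios scaling lowered the log2 change of the 52 members with a mean of at least 5 CPM by 0.32 to 0.48 over the 4 comparisons, and the single-gene changes with AAI given below are in unscaled CPM.

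**Figure D3:**
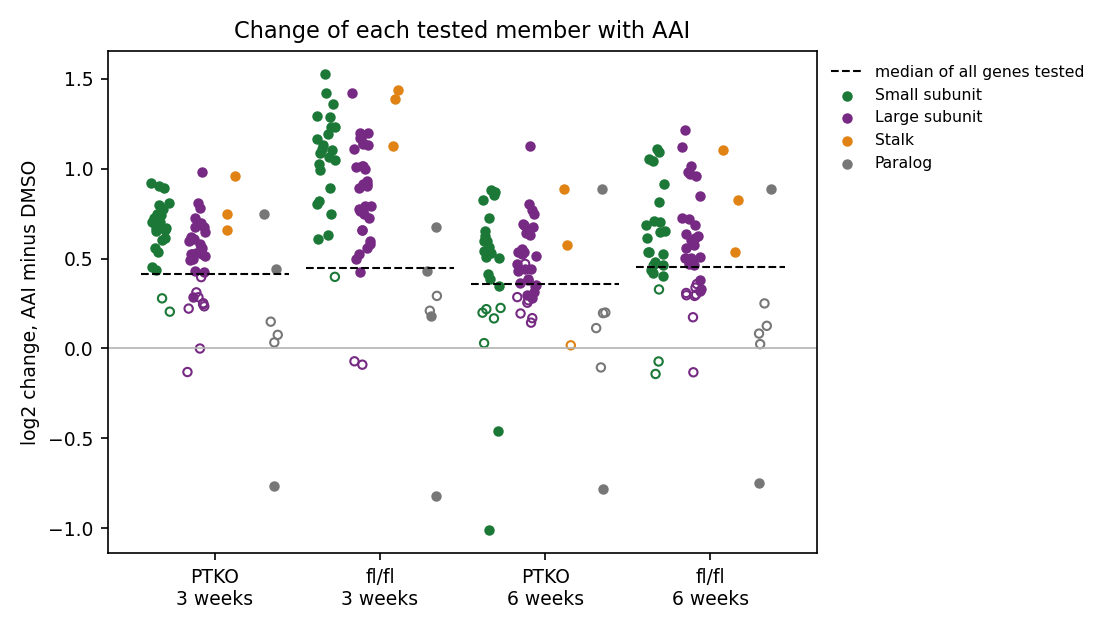
Log2 change with AAI (AAI minus DMSO, log2(CPM + 1) scale) of each tested member by comparison and role; filled points passed the test and open points did not, and the dashed line is the median of all genes tested. In fl/fl at 3 weeks the small subunit median of 1.09, the large subunit median of 0.90 and the stalk median of 1.39 lie above the line at 0.45, and the paralog median of 0.25 lies below it.

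Rps9 (ENSMUSG00000006333.14, chromosome 7, 3703993 to 3706897) is a small subunit protein near the mRNA entry channel. At 3 weeks it stood at 278, 281 and 339 CPM in fl/fl, against 105, 98.2 and 105 CPM in fl/fl under DMSO. The groups did not overlap, and its log2 change of 1.53 ± 0.10 (SE) was the largest of the members on the log2(CPM + 1) scale (adjusted p = 2.79e-09 by limma). The added 1 shrinks changes at low levels, as for Rpl10a below. In PTKO libraries Rps9 was at 235, 203 and 179 CPM at 3 weeks, against 109, 124 and 116 CPM under DMSO (log2 change 0.81 ± 0.10, adjusted p = 4.06e-06). At 6 weeks the Rps9 change was 0.91 in fl/fl and 0.62 in PTKO, both past the test.

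Rps15a (ENSMUSG00000008683.16, chromosome 7, 118104372 to 118116188), a small subunit protein, was at 70.7, 63.3 and 71 CPM in fl/fl at 3 weeks, against 23.7, 23.2 and 27.8 CPM under DMSO. Its log2 change was 1.42 ± 0.09 (adjusted p = 1.19e-09), and the PTKO change was 0.92 ± 0.09 (adjusted p = 2.09e-07). Rps24, which shares with Rps19 a role in maturing the small subunit's RNA and is mutated in human Diamond-Blackfan anaemia, rose by 1.23 in fl/fl at 3 weeks and held 1.09 at 6 weeks. Rps19 was at 78.7, 81.7 and 109 CPM in fl/fl at 3 weeks, against 37.8, 36.8 and 37.1 CPM under DMSO, a rise of 1.23. Rps20 rose by 1.36 in fl/fl at 3 weeks. Rps3 was at 546, 570 and 717 CPM, against 282, 292 and 282 CPM under DMSO (log2 change 1.09). Rpsa, a small subunit protein that also occurs as a laminin receptor precursor, was at 4.25, 4.08 and 6.02 CPM, against 2.66, 2.39 and 1.85 CPM under DMSO (log2 change 0.80). In PTKO at 3 weeks Rpsa was at 3.29, 2.9 and 3.65 CPM, against 2.25, 2.6 and 1.67 CPM under DMSO, and its call there (0.44) ended without PTKO DMSO replicate 3 (0.32), PTKO 3-week replicate 1 (0.44) or 3 (0.38) and with median-of-ratios scaling (0.11). Rps7 at 0.40 was the tested small subunit protein not called at that time.

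Among large subunit proteins, Rpl23 (ENSMUSG00000071415.6, chromosome 11, 97777527 to 97782437), which lies at the subunit interface and can bind Mdm2, was at 118, 106 and 110 CPM in fl/fl at 3 weeks, against 49.8, 49.1 and 50.3 CPM under DMSO. The log2 change of Rpl23 was 1.14 ± 0.07 (adjusted p = 1.19e-09), and the groups did not overlap. In PTKO it was at 89.3, 86.9 and 77.2 CPM at 3 weeks, against 48.3, 54.6 and 52.3 CPM under DMSO (0.70 ± 0.07, adjusted p = 3.93e-07). Rpl13a, known in other settings as part of an interferon-controlled translational silencer, was at 338, 342 and 390 CPM in fl/fl at 3 weeks, against 167, 157 and 169 CPM under DMSO, a rise of 1.11. Rpl10a, at 3.47, 4.41 and 6.33 CPM against 0.848, 1.32 and 1.16 CPM under DMSO, had the largest change of the large subunit (1.42 ± 0.30, adjusted p = 0.000464), with a wide error at this level. Rpl32 rose by 1.19, Rpl39 by 1.20 and Rpl10 by 1.13. With quantile normalization neither Rpl10a (0.42) nor Rpl10 (0.22) was called. Rpl35a changed by 0.42, and median-of-ratios scaling put it at -0.034, not a call. Rpl36 changed by 0.66, and was not called without fl/fl 3-week replicate 3 (0.48) or with median-of-ratios scaling (0.37). Rpl11, the other well-known Mdm2 ligand that could be tested, was at 1.08, 1.22 and 0.829 CPM in fl/fl at 3 weeks, against 0.182, 0.559 and 0.37 CPM under DMSO, a level too low for more than a coarse value. Rpl15 (-0.07) and Rpl23a (-0.09) did not pass the test in fl/fl at 3 weeks.

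The stalk proteins recruit the elongation factors to the ribosome. Rplp2 (ENSMUSG00000025508.13, chromosome 7, 141447370 to 141451585) was at 87.1, 81.5 and 92 CPM in fl/fl at 3 weeks, against 30.5, 29.3 and 34.5 CPM under DMSO (log2 change 1.44 ± 0.10, adjusted p = 6.03e-09). In PTKO it was at 66.3, 58.7 and 51 CPM at 3 weeks, against 31.9, 40.8 and 37.7 CPM under DMSO (0.66 ± 0.10, adjusted p = 3.96e-05 by limma). The PTKO groups lie closer together than the fl/fl groups and do not overlap. The PTKO change of Rplp2 was not a call with median-of-ratios scaling (0.22) or by DESeq2 (0.22). Rplp1 (ENSMUSG00000007892.8, chromosome 9, 61913284 to 61914542) was at 439, 566 and 725 CPM in fl/fl at 3 weeks, against 214, 199 and 236 CPM under DMSO, the widest spread of these genes. Its log2 change was 1.39 in fl/fl and 0.75 in PTKO. The PTKO change of Rplp1 was not a call with median-of-ratios scaling (0.30), by edgeR (0.32) or by DESeq2 (0.30).

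In the 4 pairs where both genes were tested, the paralog had the lower log2 change in fl/fl at 3 weeks, and the difference was not tested. Rpl3l, the striated muscle counterpart of Rpl3 (ENSMUSG00000002500.15, chromosome 17, 24727820 to 24736143), was the one member called lower in all 4 comparisons of AAI with DMSO. It was at 1.23, 0.516 and 0.567 CPM in fl/fl at 3 weeks, against 2.12, 1.52 and 2.7 CPM under DMSO (log2 change -0.82 ± 0.20, adjusted p = 0.00123). In PTKO it was at 0.515, 0.625 and 0.567 CPM at 3 weeks, against 1.45, 1.54 and 2.05 CPM under DMSO (-0.77 ± 0.20, adjusted p = 0.0024). The fl/fl and PTKO groups did not overlap with their DMSO groups. Rpl3l reached 1 CPM in every DMSO library and stayed near or below that level in the 3-week libraries. It thus passed the filter through the DMSO groups, where it is high, so these calls carry no weight. A filter at 5 CPM left Rpl3l out. Its partner Rpl3, whose loop reaches towards the peptidyl transferase centre, was at 35.6, 44.3 and 50 CPM in fl/fl at 3 weeks, against 22.2, 22.7 and 22.4 CPM under DMSO, a rise of 0.91.

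Rps27l, a p53 target whose protein is linked to Mdm2 turnover (ENSMUSG00000036781.13, chromosome 9, 66946086 to 66949516), was at 47.5, 43.5 and 43 CPM in fl/fl at 3 weeks, against 35.6, 31 and 32.2 CPM under DMSO. In PTKO it was at 46.2, 61.2 and 49.3 CPM at 3 weeks, against 35.1, 35.9 and 43.2 CPM under DMSO. The log2 changes of 0.43 (adjusted p = 0.00443) in fl/fl and 0.44 (adjusted p = 0.00411) in PTKO lie at the shift of all genes, and median-of-ratios scaling gave -0.026 in fl/fl, and neither genotype was called. Rpl7l1 changed by 0.18 in fl/fl at 3 weeks, and the sign turned to -0.28 with that scaling, while its partner Rpl7 rose by 0.89. The call of Rpl7l1 also ended without any of 5 of the 6 libraries compared (0.14 to 0.20), and without the 3 libraries that stand apart (0.18). Rps4l, which GENCODE lists as a transcribed processed pseudogene, rose by 0.67 and its partner Rps4x by 1.06. The call of Rps4l ended with median-of-ratios scaling (0.24), and without fl/fl DMSO replicate 1 (0.56) or 3 (0.60) or fl/fl 3-week replicate 1 (0.61). Rpl22l1 (0.29) and Rpl36al (0.21) did not pass the test, and Rpl22 rose by 0.77. Rps19bp1 rose by 0.63, and by 0.20, not a call, with median-of-ratios scaling.

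The start-site runs shown above did not separate the changes by much. Among tested canonical members with a RefSeq start, the 18 with a run of at least 7 bases had a median log2 change of 1.12 in fl/fl at 3 weeks, and the 26 without had 0.96. The ranges overlapped, from -0.07 to 1.53 with a run and from 0.40 to 1.42 without. In PTKO at 3 weeks the medians were 0.66 with a run and 0.57 without.

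Other genes of the translation machinery were taken from lists of known function. Of 21 TOP translation factors and companions, 17 were called higher (81%) and 0 lower in fl/fl at 3 weeks, with a median of 0.56, against 58%, 18.2% and 0.45 over all genes. At 6 weeks in fl/fl 16 were called higher (76.2%, against 59.8% of all genes), with a median of 0.43, against 0.45. In PTKO 14 were called higher at 3 weeks (66.7%, against 57.2%; median 0.33, against 0.42) and 14 at 6 weeks (66.7%, against 53.7%; median 0.38, against 0.36). None was called lower in these 3 comparisons. Gnb2l1, the small subunit scaffold also called Rack1, rose by 1.20 ± 0.10 (743 ± 97.6 CPM, against 320 ± 9.38 CPM under DMSO; adjusted p = 4.15e-08). Eif3f, an initiation factor subunit, rose by 1.18 and Eef1g, an elongation factor subunit, by 0.93. Of 34 genes of ribosome assembly and rRNA synthesis, 30 were called higher (88.2%) and 1 lower in fl/fl at 3 weeks, with a median of 0.65, against the same all-gene values. Among them Nop58, of the box C/D snoRNA particle, rose by 1.27, Mybbp1a by 0.88 and Myc, an activator of ribosome genes, by 3.03. Of 17 genes that control TOP mRNA translation and growth signalling, 7 were called higher (41.2%) and 3 lower (17.6%), with a median of 0.17, so fewer were higher than the 58% of all genes. The translation repressor Eif4ebp1 rose by 2.33, Mdm2 by 1.79, and Mtor fell by 1.75 on the log2 scale (116 ± 10.9 CPM, against 391 ± 15.6 CPM under DMSO).

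The 5 genes outside the family whose log2 levels over the 18 libraries were most like the mean of the tested members were Gnb2l1 (Pearson r = 0.998), Ppp4c (0.990), Arpc3 (0.989), Cfl1 (0.989) and Arpc4 (0.989). These are descriptions over libraries in 6 groups that share treatments. Ppp4c encodes a phosphatase subunit, and Arpc3, Arpc4 and Cfl1 act on actin.

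The cell markers moved with treatment over the same libraries. The summed macrophage markers (9 of 10 listed genes had a row, none at 0 in a group) were at 1796 to 3534 CPM in PTKO and 5371 to 8968 CPM in fl/fl at 3 weeks, against 129 to 193 CPM over both DMSO groups. The 10 proximal tubule markers were at 6610 to 8833 CPM in PTKO and 3342 to 6038 CPM in fl/fl at 3 weeks, against 28487 to 32173 CPM under DMSO. Proliferation markers (6 genes) were at 209 to 258 CPM in PTKO and 255 to 288 CPM in fl/fl, against 32 to 42.1 CPM under DMSO. Their part in the ribosomal protein levels was not tested. In whole cortex, more cells of a type and more RNA per cell cannot be told apart.

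After 3 weeks of AAI the level was lower in PTKO than in fl/fl across much of the family. PTKO against fl/fl gave 0 members higher and 30 lower of 68, where 6.22% of all genes tested were called higher and 8% lower. The members' median log2 difference was -0.37, against -0.04 over all genes. The 30 comprised 16 of 24 small subunit proteins (median -0.43), 11 of 34 large subunit proteins (median -0.33) and all 3 stalk proteins, and 0 of 6 paralogs (median -0.12). In 28 of the 30 (93.3%) every PTKO library lay below every fl/fl library, as in 94% of all genes called lower. Of all genes tested, 7.53% were called lower with no overlap, against 41.2% of the members. The count was 24 with median-of-ratios scaling and 31 with quantile normalization, all lower, where 6.57% and 8.18% of all genes were called lower. Without fl/fl 3-week replicate 3, the library with the highest member sum, 7 were called and the median was -0.27. Without PTKO 3-week replicate 2 or replicate 3, 12 and 11 were called, and with the 2 compared groups alone 10 were called. The share of all genes was not counted without single libraries or with the 2 groups alone.

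Rps15a in the 3-week libraries was at 51.3, 49.6 and 44.2 CPM in PTKO, against 70.7, 63.3 and 71 CPM in fl/fl, a log2 difference of -0.49 ± 0.09 (adjusted p = 0.00396). Rpl23 was at 89.3, 86.9 and 77.2 CPM in PTKO, against 118, 106 and 110 CPM in fl/fl (-0.40 ± 0.07, adjusted p = 0.00396). Rplp2 differed by -0.56 ± 0.10 (adjusted p = 0.00478) and Rps9 by -0.54 ± 0.10 (adjusted p = 0.00535). These 4 genes kept their calls without any one of the 18 libraries. Rps3 (-0.43), Rps19 (-0.49), Rps20 (-0.51), Rps10 (-0.52), Rps24 (-0.37) and Rplp1 (-0.52) were also called, and each lost its call without fl/fl 3-week replicate 3, at -0.31, -0.35, -0.42, -0.33, -0.34 and -0.34 in that order. All of them but Rps20 also lost it without PTKO 3-week replicate 2 or replicate 3 (-0.26 to -0.59), Rps24 (-0.37) and Rplp1 (-0.52) without fl/fl 3-week replicate 2, and Rps10 without fl/fl DMSO replicate 2 (-0.52). Rpl15 was the member with the largest positive difference (0.44, 95% interval 0.08 to 0.79) and did not pass the test (adjusted p = 0.092), at 0.21 without fl/fl 3-week replicate 3.

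Of the TOP translation factors and companions, 4 of 21 were called lower in PTKO at 3 weeks: Gnb2l1 at -0.47 (adjusted p = 0.0105), Eef1g at -0.37, Eef1d, another elongation factor subunit, at -0.26, and Tpt1, a TOP mRNA for a growth-related protein, at -0.56. Gnb2l1 lost its call without fl/fl 3-week replicate 3 (-0.37) or PTKO 3-week replicate 3 (-0.39), and Eef1g without PTKO 3-week replicate 3 (-0.31). Eef1d and Tpt1 lost theirs without any compared library but PTKO 3-week replicate 1 (-0.20 to -0.28 and -0.47 to -0.69), and Eef1d also with median-of-ratios scaling (-0.22). The assembly and rRNA synthesis list had 0 of 34 called in either direction, with a median of -0.05. In the growth signalling list Eif4ebp1 was lower (27.2 ± 1.98 CPM in PTKO, against 43 ± 6.41 CPM in fl/fl) and Mtor higher (176 ± 29.8 CPM in PTKO, against 116 ± 10.9 CPM in fl/fl), and both calls ended without fl/fl 3-week replicate 2 or 3 or PTKO 3-week replicate 2 or 3 (-0.52 to -0.65 for Eif4ebp1 and 0.48 to 0.60 for Mtor). Macrophage and fibroblast markers were also lower in PTKO at this time, 1491 to 1880 CPM in PTKO against 3240 to 4260 CPM in fl/fl for the 6 fibroblast markers, and the macrophage ranges above did not overlap. Ranges overlapped for T cell markers (52.5 to 167 CPM in PTKO, against 85.5 to 164 CPM in fl/fl). They also overlapped for B cell and plasma cell markers (9.9 to 10.6 CPM, against 8.4 to 32.1 CPM) and for the proliferation markers above. Proximal tubule markers were higher in PTKO, with no overlap. The part of these markers in the difference was not tested.

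Under DMSO 0 of 68 members were called between PTKO and fl/fl (all genes 0.288% in either direction), with a median of 0.02. At an unadjusted p under 0.05 there were 4 (Rps2, Rplp0, Rps6 and Rpl15), or 5.88% against 6.53% of all genes. EdgeR called 0 members and DESeq2 called 1, Rplp0 (all genes 0.774%). The size of the AAI response was then compared between genotypes. The interaction at 3 weeks, the PTKO change minus the fl/fl change, had a median of -0.39 over the members, against -0.02 over all genes. It passed the test for Rplp2 alone (-0.78 ± 0.15, adjusted p = 0.045), where 0.281% of all genes passed in either direction. Rps9 followed at -0.72 with an adjusted p of 0.0506. The Rplp2 call was lost without any one of 10 of the 18 libraries, at -0.69 to -0.85: all 3 fl/fl DMSO libraries, PTKO DMSO replicates 2 and 3, fl/fl 3-week replicate 3, PTKO 3-week replicates 2 and 3, and PTKO 6-week replicates 1 and 2. The count was higher without fl/fl 3-week replicate 1 (7), fl/fl 6-week replicate 2 (5), PTKO 3-week replicate 1 (4), PTKO 6-week replicate 3 (3) or fl/fl 6-week replicate 1 (2). The share of all genes was not counted in these fits. At an unadjusted p under 0.05 there were 30 members (44.1%, against 18.6% of all genes), and DESeq2 called 8 of the 67 to which it gave an adjusted p (11.9%, against 3.9%). The interaction at 6 weeks gave 0 members (all genes 0.0685%), with 3 at an unadjusted p under 0.05 (4.41%, against 14.6% of all genes), 0 by edgeR and 1 by DESeq2 (all genes 0.582%).

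Between 3 and 6 weeks the level in fl/fl came down in part of the family. At 6 weeks against 3 weeks, 0 members were called higher and 23 lower in fl/fl (all genes 7.16% higher and 6.07% lower), with a median of -0.28, against 0.00 over all genes. By role 12 of 24 small subunit proteins, 9 of 34 large subunit proteins and 2 of 3 stalk proteins were lower. The log2 differences varied between members, and members were not tested against each other. Rps25, which acts in initiation at viral internal ribosome entry sites, was at 6.43, 4.35 and 5.03 CPM at 6 weeks, against 9.55, 14.5 and 11.5 CPM at 3 weeks (log2 difference -1.03 ± 0.18, adjusted p = 0.00325). Rps10 (-0.87), Rps19 (-0.79), Rps20 (-0.71) and Rpl32 (-0.72) also fell. Rps24 (-0.14) and Rpl23 (-0.16) were not called, and Rps26 and Rpl41 stood at 1.11 and 1.02 above DMSO in fl/fl at 6 weeks. The count was 12 without fl/fl 3-week replicate 3 and 12 without fl/fl 6-week replicate 2, where the share of all genes was not counted. It was 10 without the 3 libraries that stand apart (all genes 2.49% higher and 1.42% lower). Other markers were lower over the same fl/fl libraries. Macrophage markers were at 3059 to 5325 CPM at 6 weeks, against 5371 to 8968 CPM at 3 weeks, fibroblast markers at 1522 to 2592 CPM, against 3240 to 4260 CPM, and proliferation markers at 101 to 175 CPM, against 255 to 288 CPM. None of these ranges overlapped between the times. Ranges of T cell markers (79.2 to 136 CPM at 6 weeks, against 85.5 to 164 CPM at 3 weeks) did overlap. So did those of B cell and plasma cell markers (23.3 to 23.7 CPM, against 8.4 to 32.1 CPM) and proximal tubule markers (4738 to 9102 CPM, against 3342 to 6038 CPM). The part of these markers in the fall was not tested. This comparison and that of the genotypes at 3 weeks share the fl/fl 3-week libraries, so their members are not independent evidence of each other.

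In PTKO, 6 members were lower at 6 weeks than at 3 weeks and 0 higher (all genes 8.26% lower and 2.92% higher), with a median of -0.07, against -0.06 over all genes. They were Rps2, Rplp0, Rps19, Rps20, Rps10 and Rps25. Rps25 was also lower than under DMSO in PTKO at 6 weeks (-0.46, adjusted p = 0.0394), and it was not called without PTKO 6-week replicate 2 (-0.31), PTKO DMSO replicate 1 (-0.40) or 2 (-0.38), nor without the 3 libraries that stand apart (-0.24). Between 6 and 3 weeks Rps19 (-0.43), Rps20 (-0.36), Rps10 (-0.56) and Rps25 (-0.66) each lost the call without PTKO 3-week replicate 1 or 2 or PTKO 6-week replicate 1 or 2 (-0.29 to -0.74). Without the 3 libraries that stand apart Rps20 (-0.35) and Rps25 (-0.52) were not called, and Rps20 was not called with median-of-ratios scaling (-0.31) either. Fibroblast markers in PTKO were at 253 to 979 CPM at 6 weeks, against 1491 to 1880 CPM at 3 weeks, and proliferation markers at 72.7 to 121 CPM, against 209 to 258 CPM. Ranges overlapped for macrophage markers (1148 to 2544 CPM, against 1796 to 3534 CPM) and T cell markers (27.5 to 81.3 CPM, against 52.5 to 167 CPM). They also overlapped for B cell and plasma cell markers (8.08 to 11.2 CPM, against 9.9 to 10.6 CPM) and proximal tubule markers (6744 to 11418 CPM, against 6610 to 8833 CPM). The part of these markers was not tested. The count of 6 was 2 without PTKO 3-week replicate 1 or 2 or PTKO 6-week replicate 1 or 2, and 3 without PTKO 6-week replicate 3. The share of all genes was not counted in these fits.

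A set of 3 members, chosen after their values were seen, had lower values in PTKO under every treatment. Rps2, of the mRNA entry site (ENSMUSG00000044533.15, chromosome 17, 24718116 to 24721929), Rplp0, the base of the stalk (ENSMUSG00000067274.10, chromosome 5, 115559467 to 115563727), and Rps6, the S6 kinase substrate (ENSMUSG00000028495.14, chromosome 4, 86854660 to 86857412), were lower in every PTKO library than in every fl/fl library of the same treatment. The share of all genes that separate in this way was not counted. Of the 68 tested members, these 3 were called between the genotypes at 6 weeks, all lower in PTKO. That is a smaller share than the 11.8% of all genes called lower (3.27% were called higher). Rps2, Rplp0 and Rps6 lie on different chromosomes.

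Rps2 under DMSO was at 62, 63 and 26.1 CPM in PTKO, against 85.1, 91.7 and 95.3 CPM in fl/fl. At 3 weeks it was at 75.6, 83.6 and 71.7 CPM in PTKO, against 132, 142 and 189 CPM in fl/fl. At 6 weeks it was at 22.9, 21.1 and 24.2 CPM in PTKO, against 129, 110 and 139 CPM in fl/fl. The PTKO values fall into separate levels, with DMSO replicate 3 and all 3 of the 6-week libraries far below the others. The log2 difference between genotypes was -0.94 ± 0.24 under DMSO, with an adjusted p of 0.175, and it was -0.53 without PTKO DMSO replicate 3. It was -0.98 ± 0.24 at 3 weeks, with an adjusted p of 0.0151, and -2.41 ± 0.24 at 6 weeks, with one of 3.68e-05. The 3-week call of Rps2 ended without fl/fl 3-week replicate 3 (-0.83) or PTKO 3-week replicate 2 (-1.04) or 3 (-0.93). With AAI, Rps2 rose in fl/fl at 3 weeks by 0.75, which was not a call without fl/fl 3-week replicate 3 (0.59) or with median-of-ratios scaling (0.28), and in PTKO at 6 weeks it was lower than under DMSO by -1.01 on the log2 scale. The PTKO change at 3 weeks was 0.70, and was not a call without PTKO DMSO replicate 3 (0.29) or with median-of-ratios scaling (0.26).

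Rplp0 under DMSO was at 163, 166 and 92.7 CPM in PTKO, against 225, 224 and 232 CPM in fl/fl. At 3 weeks it was at 280.1, 275 and 243 CPM in PTKO, against 446, 466 and 592 CPM in fl/fl. At 6 weeks it was at 134, 142 and 138 CPM in PTKO, against 340, 294 and 360 CPM in fl/fl. DMSO replicate 3 of PTKO was again the lowest of its group, and the 6-week PTKO libraries did not exceed PTKO DMSO replicates 1 and 2. The differences for Rplp0 were -0.74 ± 0.17 under DMSO, -0.90 ± 0.17 at 3 weeks and -1.26 ± 0.17 at 6 weeks, with adjusted p-values of 0.127, 0.00521 and 0.000616 in that order. The Rplp0 difference under DMSO was -0.46 without PTKO DMSO replicate 3. Rps6 under DMSO was at 4.25, 3.37 and 2.86 CPM in PTKO, against 5.39, 5.39 and 5.34 CPM in fl/fl, and at 3 weeks at 6.57, 5.81 and 5.02 CPM in PTKO, against 9.03, 7.78 and 9.42 CPM in fl/fl. The differences of Rps6 were -0.52 ± 0.13 at both times, with an adjusted p of 0.161 under DMSO and 0.016 at 3 weeks, and the 3-week call ended without fl/fl 3-week replicate 3 (-0.47) or PTKO 3-week replicate 2 (-0.53) or 3 (-0.44). At 6 weeks Rps6 was at 4.47, 4.05 and 4.04 CPM in PTKO, against 8.62, 8.36 and 7.73 CPM in fl/fl (-0.83 ± 0.13, adjusted p = 0.00128).

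**Figure D4:**
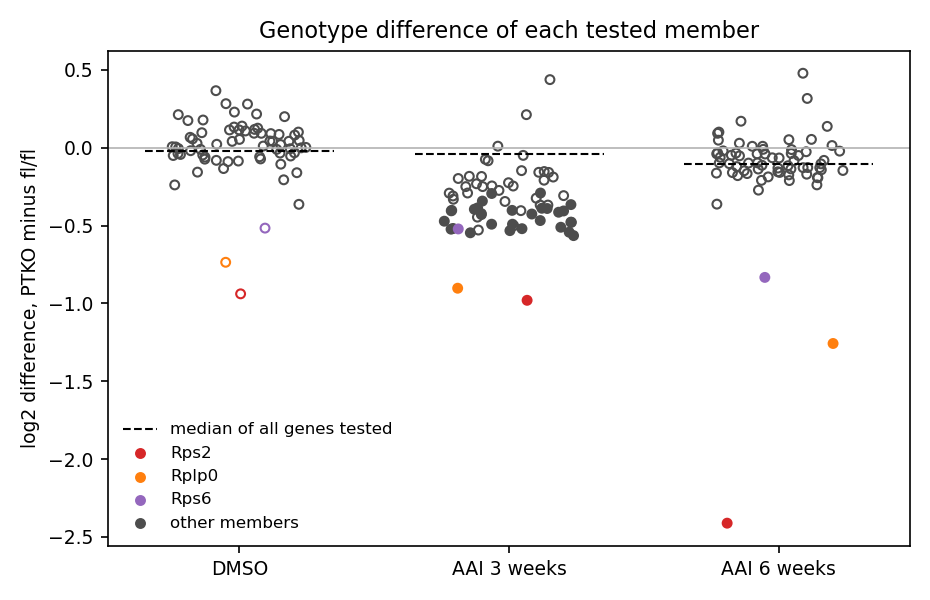
Log2 difference between genotypes (PTKO minus fl/fl, log2(CPM + 1) scale) of each of 68 tested members under each treatment; filled points passed the test, open points did not, and the dashed line is the median of all genes tested. At 3 weeks most members lie below the line, with a median of -0.37, and at 6 weeks Rps2 at -2.41, Rplp0 at -1.26 and Rps6 at -0.83 lie apart from the rest. These 3 were chosen after their values were seen.

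Set against the mean log2 level of the other 58 tested canonical members of the same library, Rps2 was at 0.68 to 1.87 in PTKO and 2.34 to 2.48 in fl/fl under DMSO. At 3 weeks it was at 1.47 to 1.70 in PTKO and 2.14 to 2.38 in fl/fl, and at 6 weeks at -0.16 to 0.06 in PTKO and 2.24 to 2.34 in fl/fl. The fl/fl values thus stayed within a narrow band under all treatments, and the PTKO values did not. Rplp0 was at 2.47 to 3.25 in PTKO and 3.74 to 3.76 in fl/fl under DMSO, and at 2.48 to 2.53 in PTKO and 3.66 to 3.73 in fl/fl at 6 weeks. Rps6 was at -2.13 to -1.71 in PTKO and -1.45 to -1.38 in fl/fl under DMSO, at -1.96 to -1.87 in PTKO and -1.84 to -1.59 in fl/fl at 3 weeks, and at -2.29 to -2.14 in PTKO and -1.67 to -1.32 in fl/fl at 6 weeks. The Rps6 groups thus nearly met at 3 weeks. The genotype differences of the other 58 ran from -0.24 (Rps7) to 0.37 (Rpl15) under DMSO, around a median of 0.02. At 3 weeks they ran from -0.56 (Rplp2) to 0.44 (Rpl15), around a median of -0.39, so Rps6 at -0.52 lay within the range of the others and Rps2 and Rplp0 lay below it. At 6 weeks they ran from -0.27 (Rpl10) to 0.48 (Rpl15), around a median of -0.10, and all 3 lay below. The 3 were chosen for their low PTKO values, so their place below the other 58 describes that choice and tests nothing.

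**Figure D5:**
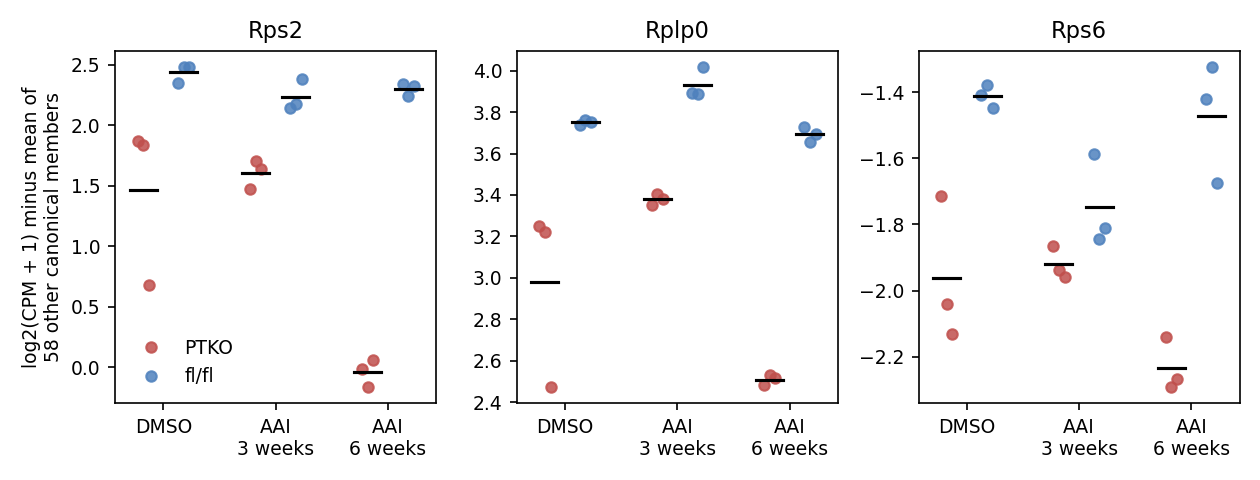
Log2(CPM + 1) of Rps2, Rplp0 and Rps6 minus the mean of 58 other canonical members in the same library, by treatment, PTKO in red left of fl/fl in blue; points are libraries, bars are means of 3, and each panel has its own axis. At 6 weeks Rps2 lies at -0.16 to 0.06 in PTKO and at 2.24 to 2.34 in fl/fl.

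Rps2 shares 100-base transcript windows with 36 other genes, of which 1 has a row in the table (at most 0.281 CPM in any library), Rps6 with 9 and Rplp0 with 3, none of which has a row. A gene outside the family was set beside them after its values were seen. Nnt, a mitochondrial enzyme gene that carries a deletion in the C57BL/6J substrain and not in some others, was at 295, 295 and 394 CPM in PTKO under DMSO, against 193, 173 and 178 CPM in fl/fl. At 3 weeks Nnt was at 147, 168 and 164 CPM in PTKO, against 81.1, 76.2 and 63.5 CPM in fl/fl, and at 6 weeks at 303, 261 and 300.3 CPM in PTKO, against 83, 115 and 88 CPM in fl/fl. The PTKO libraries lay above the fl/fl libraries under every treatment, with PTKO DMSO replicate 3 the highest of its group. The labels give the strain as C57Bl/6 with no substrain, and the part of strain background in the levels of Rps2, Rplp0 and Rps6 was not tested. At 6 weeks the summed macrophage markers were at 1148 to 2544 CPM in PTKO and 3059 to 5325 CPM in fl/fl. Fibroblast markers and B cell and plasma cell markers were also lower in PTKO, with no overlap. Ranges overlapped for T cell markers (27.5 to 81.3 CPM in PTKO, against 79.2 to 136 CPM in fl/fl), proximal tubule markers and proliferation markers. The part of these markers was not tested either. The members called between genotypes at 6 weeks were again 3 without the 3 libraries that stand apart (all genes 4.96% higher and 16.1% lower). They were 5 without fl/fl 6-week replicate 2 alone, where the share of all genes was not counted.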

How the data were processed

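Kidney cortex was taken into RNAlater, and stranded total RNA libraries were prepared, per the labels' protocols. The authors deposited 1 table of CPM (reads of a gene relative to all reads of its library), with 24062 symbols, and the submitters' processing notes name bcl2fastq 2.19, kallisto and mm10, with no role or order. The CPM values came out as whole reads for 433116 of 433116 values (100%) within 0.01 read. Library depth was 11722625 to 27213219 reads, where 3 reads are 0.11 to 0.256 CPM.

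Differences were fitted with limma 3.58.1 (R 4.3.3) on log2(CPM + 1), with 6 group means over all 18 libraries, a variance trend and two-sided tests, over the 14604 genes that reached 1 CPM in 3 or more libraries. P-values were adjusted by Benjamini-Hochberg over all of them in each of 11 comparisons, and a gene was called at an adjusted p under 0.05. edgeR 4.0.16 and DESeq2 1.42.0 on the recovered reads were alternatives, and scripts were tested on simulated data. Named genes were a fixed set of well-known members and all paralogs, per comparison the 3 smallest adjusted p-values in each direction and the 3 largest and 3 smallest changes, members called against the majority, and up to 3 genes of each other list by adjusted p. Chosen after their values were seen were Rps12, Rpl27, Rpl12, Rpl4, Rpl41, Rps7, Tpt1 and Nnt, and Rps2, Rplp0 and Rps6 as a set. The members and gene lists were chosen with earlier results of these data known. Replicate numbers were not used to pair libraries. Uniqueness used GENCODE M21 transcripts, and start sites RefSeq. Values of some members are not reported here.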

Additional observations from a re-analysis of the deposited data

Results flagged for a closer look

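The response of Rplp2 to AAI at 3 weeks differed between the genotypes. The PTKO change minus the fl/fl change was -0.78 ± 0.15 on the log2 scale (95% interval -1.09 to -0.47), with an adjusted p of 0.045 by limma over all genes tested. The call was lost without any one of 10 of the 18 libraries, at -0.69 to -0.85, and the cause of the difference was not tested.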

How the results depend on the processing

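Numbers are members called. In the order fl/fl at 3 weeks, fl/fl at 6 weeks, PTKO at 3 weeks and PTKO at 6 weeks against DMSO, quantile normalization gave 36, 20, 20 and 16 higher and 7, 21, 17 and 17 lower. The members' medians at 6 weeks were then -0.026 in fl/fl and -0.075 in PTKO, against -0.091 and -0.065 over all genes. Median-of-ratios scaling gave 3, 6, 4 and 5 lower, and 18, 19 and 15 higher from fl/fl at 6 weeks on. For fl/fl at 3 weeks edgeR on the recovered reads called 50 members higher, and 5270 of all genes higher and 5091 lower. In the other 3 comparisons edgeR gave 18, 21 and 18 higher (all genes 34%, 33.8% and 30.9%) and DESeq2 18, 18 and 15 (34.2%, 33.4% and 30.3%). Over the 4 comparisons 3, 5, 4 and 5 were lower by edgeR (all genes 34.9%, 31.9%, 30.7% and 26.5%). By DESeq2 3, 5, 4 and 6 were lower (34.4%, 32.1%, 32% and 29.1%). A filter at 5 CPM, or the canonical proteins alone, gave 0 lower in the first 3 of these comparisons. PTKO against fl/fl gave 1 under DMSO and 5 at 6 weeks by DESeq2 (all genes at 6 weeks 7.65% higher and 8.25% lower), and 10 at 3 weeks in a fit of the compared groups alone. The share of all genes was not counted in fits of the compared groups alone or without 1 library. A fit of the compared groups alone also gave 9 for fl/fl and 2 for PTKO at 6 against 3 weeks, and leaving out the libraries that stand apart gave 10 for fl/fl (all genes 2.49% higher and 1.42% lower). The interaction at 3 weeks gave 2 with a pseudocount of 0.1, with median-of-ratios scaling, with the filter at 5 CPM or without those libraries, 3 with quantile normalization or the compared groups alone, 8 by DESeq2, and 0 with no filter or no variance trend. All genes were called higher and lower in 0.137% and 0.185% with median-of-ratios scaling and in 0.281% and 0.322% with quantile normalization. Without those libraries they were called in 1.05% and 0.651%. At 6 weeks DESeq2 gave 1. Leaving out 1 library at a time gave 58 to 63, 45 to 54, 49 to 55 and 40 to 48 higher with AAI, and 1, 1, 1 and 2 to 3 lower. It gave 0 under DMSO, 7 to 34 at 3 weeks and 3 to 5 at 6 weeks between genotypes, 12 to 26 in fl/fl and 2 to 7 in PTKO between times, and 0 to 7 and 0 to 1 for the interactions. Signs turned with quantile normalization for Rps6 in fl/fl (-0.30 at 3 weeks, -0.40 at 6 weeks) and, in fl/fl at 3 weeks, Rps27l (-0.027), Rpl7l1 (-0.13), Rps4l (-0.033), Rps19bp1 (-0.11), Rpl11 (-0.19), Rpsa (-0.24), Rps7 (-0.56) and Rpl36 (-0.28), and for Rpsa in PTKO at 3 weeks (-0.53). With median-of-ratios scaling, edgeR and DESeq2, Rps27l was at -0.026, -0.044 and -0.026, Rpl7l1 at -0.28, -0.30 and -0.29 and Rpl35a at -0.034, -0.049 and -0.030, and Rplp0 in PTKO at 6 weeks was at -0.42 by DESeq2. Rplp0 there was at 0.018 in the main fit, not a call. It was also at -0.38 with median-of-ratios scaling, -0.26 without PTKO DMSO replicate 3 and -0.0046 without PTKO 6-week replicate 2, none a call. The cause of these changes was not tested. Deviations of same-numbered libraries from their group means had correlations of -0.37 to 0.24. Differently numbered libraries were not set beside them, so these values cannot decide whether the numbers pair libraries. A replicate block gave 62, 50, 52 and 46 higher with AAI, 1, 1, 1 and 2 lower, 0, 22 and 3 between genotypes, 21 and 6 between times, and 1 and 0 for the interactions. All genes were then called higher with AAI in 57.5%, 59.5%, 56.7% and 52.9% and lower in 17.9%, 13.8%, 13.8% and 11.3%. Between genotypes 6.61% were lower at 3 weeks and 10.9% at 6 weeks, and between times 5.2% were lower in fl/fl and 7.26% in PTKO. Of 3757 alternative values of single genes, 3501 kept their side of the threshold, and 215 lost and 20 gained a call with the same sign. In 21 the sign turned where the main or the alternative value was called. Sign turns with a call in neither fit, as for Rplp0 in PTKO at 6 weeks, count among the 3501.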
